A study of Homo sapiens with 6 samples.

Results

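The genes of the cellular response to low oxygen and of glycolysis were compared between SCC-9 cells depleted of Ki67 and control cells. The set held 40 genes, taken by symbol from the 25349 genes of the count table. It comprised the 2 HIF alpha subunits HIF1A and EPAS1, 4 transporters of glucose and lactate, 17 glycolytic enzymes from hexokinase to lactate dehydrogenase, 4 regulators of glycolysis, and 13 further targets of HIF that are not glycolysis genes. All 40 genes had a row in the table, and 39 of them passed the filter on low counts. LDHB did not pass and was not tested.

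The SCC-9 line was established from a carcinoma of the tongue and is of squamous epithelial type. In the siE7 group the cells were transfected with 10 nM of an siRNA that targets exon 7 of MKI67, which encodes the proliferation marker Ki67, on day 0 and again on day 2. The siNC group received a negative control siRNA in the same way, and RNA was taken on day 4. Each group had 3 libraries of polyadenylated RNA, and the comparison asked which genes responded to the loss of the exon 7-containing Ki67 transcript. All libraries came from the same line, and nothing in the sources used here says that the replicates were separate cultures, so the p-values measure a spread between libraries that may be technical. Which of the siRNAs designed against exon 7 was used is not given in the sources used here, and the counts per gene do not separate the isoforms of MKI67.

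The libraries held 25608192 to 29550264 counts. Levels are given as CPM, counts scaled to a common library size, with TMM factors that correct for differences in RNA composition between libraries. The targeted gene MKI67 stood at 1059 ± 26.7 CPM with siNC and 115 ± 8.70 CPM with siE7 (SD, n = 3), a log2 fold change of -3.21. All 8 squamous markers examined were detected at 22.6 CPM or more in all 6 libraries, with 4 of them lower with siE7 (KRT5, TP63, CDH1 and EPCAM) and KRT17 higher. Of 11 markers of other cell types, PTPRC, CD3E and HBB had no row in the table. The 3 with enough counts for the test were COL1A1 (14.3 to 21.7 CPM over the 6 libraries), COL1A2 (0.942 to 2.44) and ALB (0 to 1.56). Their adjusted p-values for siE7 against siNC were 0.25 to 0.61 by edgeR. These p-values compare the groups and do not say whether other cell types were present. The siE7 replicate 1 stood apart from its group. Its counts differed from those of siE7 replicates 2 and 3 with a chi-square per degree of freedom of 61.1 and 72.7, against 6.22 between replicates 2 and 3. Members whose call changes without this library, or whose log2 fold change then moves by more than 1.5 times, are given with and without it. Without it 58.4% of all tested genes were called.

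HIF is a transcription factor made of an oxygen-sensitive alpha subunit and a constant beta subunit. In normal oxygen the prolyl hydroxylases of the EGLN family mark the alpha subunit for destruction, and in low oxygen it accumulates, binds short DNA motifs with the core ACGTG or GCGTG and switches on its targets. The classical targets include glucose transporters, nearly every step of glycolysis, the kinases that keep pyruvate out of the mitochondria, and genes for pH control, blood vessel tone and collagen maturation. Squamous carcinomas of the head and neck often contain poorly oxygenated regions and use glycolysis heavily. The alpha subunits are controlled mainly as proteins, so an RNA level does not give the activity of the factor.

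Of the 39 genes tested, 20 were called at an adjusted p under 0.05, where 34.0% of all 14661 tested genes were called. Higher levels with siE7 were called for 14 of the 39 (18.0% of all genes) and lower levels for 6 (16.0% of all genes). With DESeq2 in place of edgeR the split was 12 higher and 10 lower. DESeq2 called 4871 genes in all, against 4990 by edgeR. Its share of 19.2% is over all 25349 genes without the filter on low counts, so it is not comparable with the 34.0%. A DEG additionally had an absolute log2 fold change above 1. The members held 5 DEGs, where 12.2% of all genes were DEGs, and all 5 were higher with siE7 (7.38% of all genes). They were LOX, ALDOC, ANKRD37, ADM and PFKFB4. The 3 siE7 libraries lay wholly above or wholly below the 3 siNC libraries for 24 of the 39 genes, against 47.6% of all genes. In bulk libraries a change in the share of cells that hold a transcript and a change in its amount per cell cannot be told apart.

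**Figure D1:**
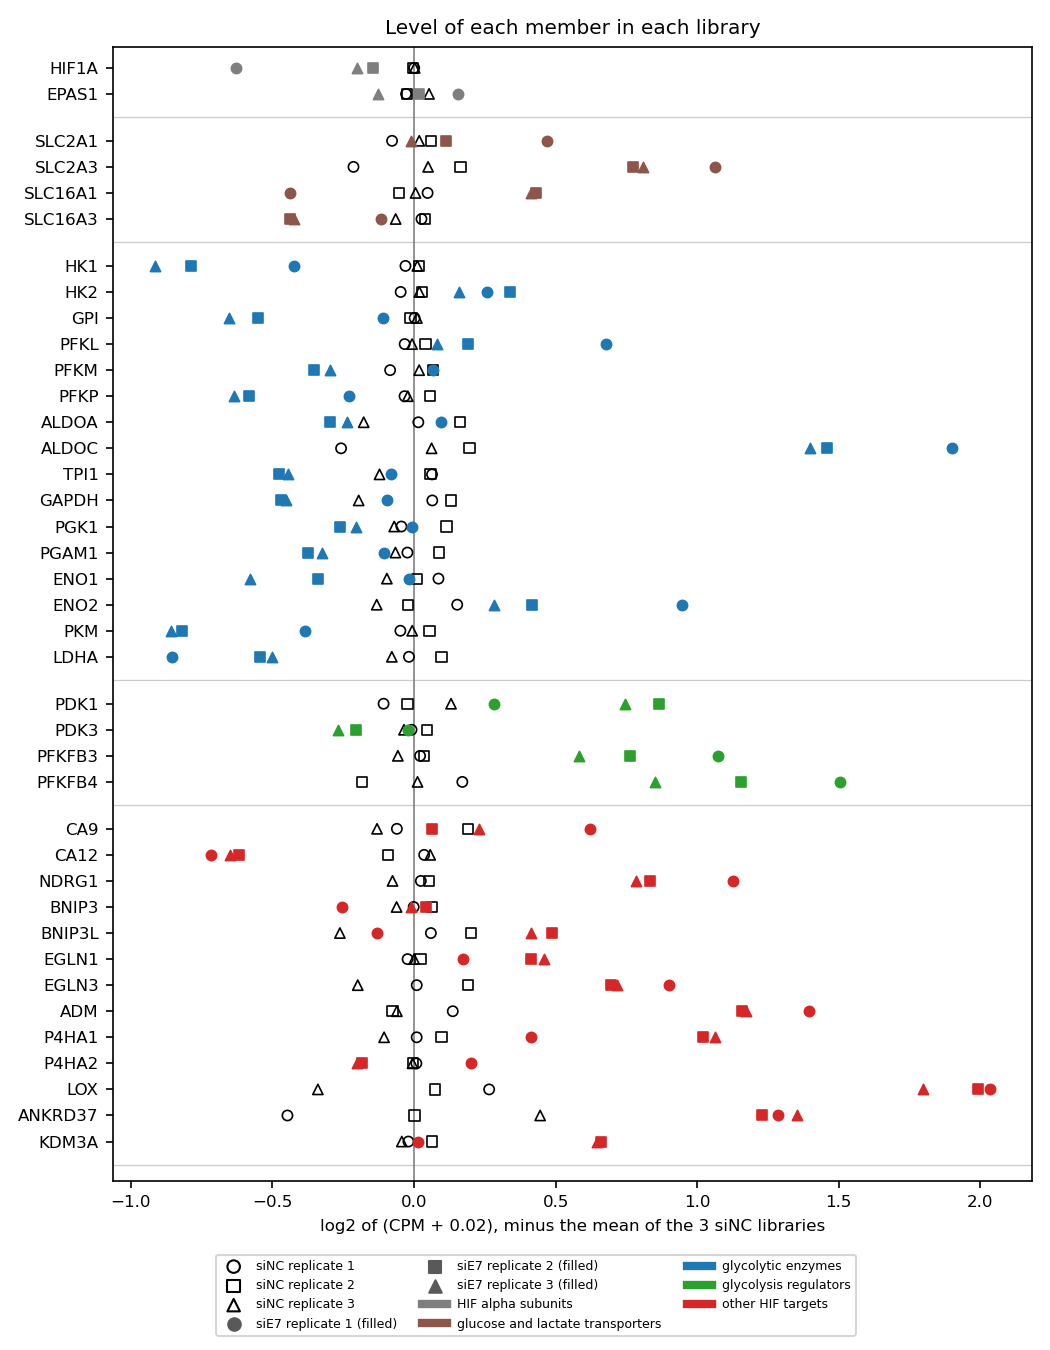
Level of each tested member in each library, as log2 of CPM plus 0.02 minus the mean of the 3 siNC libraries. Open symbols are siNC, filled symbols siE7, the shape gives the replicate and the colour the role. All filled symbols of LOX, ALDOC, ANKRD37, ADM and PFKFB4 lie to the right of their open symbols, those of HK1, PKM, LDHA and CA12 lie to the left of all open symbols, and the circles of siE7 replicate 1 stand apart from the other filled symbols for many glycolytic enzymes.

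Neither HIF alpha subunit was called by edgeR. HIF1A, the subunit present in most cell types, stood at 120, 120 and 120 CPM in siNC replicates 1 to 3 and at 77.6, 108 and 104 CPM in siE7 replicates 1 to 3. Every siE7 library was below every siNC library, and siE7 replicate 1 was the lowest. The log2 fold change was -0.31 ± 0.134 (SE) and the adjusted p of edgeR was 0.095. DESeq2 called the gene (log2 fold change -0.37, adjusted p = 0.037). Without siE7 replicate 1 the edgeR value was -0.24 with an adjusted p of 5.1e-04. EPAS1, which encodes HIF-2 alpha, stood at 162, 163 and 172 CPM with siNC and at 185, 167 and 152 CPM with siE7. The groups overlapped, and the log2 fold change was 0.02 ± 0.112 (adjusted p = 0.91), or -0.11 (adjusted p = 0.084) without siE7 replicate 1.

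The HIF1A value was also computed with the reads of an overlapping gene added. HIF1A lies on the plus strand of chromosome 14 (GRCh38, 61695513 to 61748259), and the long noncoding gene ENSG00000258964 overlaps 2.87% of its exon bases on the same strand. This gene held 387, 393 and 428 counts with siNC and 560, 1178 and 1300 counts with siE7. Added to HIF1A, the sum stood at 136 ± 0.466 CPM with siNC and 131 ± 30.3 CPM with siE7, the groups overlapped, and the log2 fold change was -0.05 (adjusted p = 0.84). The noncoding gene also overlaps SNAPC1, and the part it shares with HIF1A is 20.6% of its own exon bases. How many of its reads came from HIF1A was not tested, so the sum is not a level of HIF1A.

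Of the 4 transporters, SLC2A3 rose and the other 3 were not called. SLC2A3, a high-affinity glucose transporter, was scarce and stood at 2.98 ± 0.393 CPM with siNC and 5.49 ± 0.622 CPM with siE7, a log2 fold change of 0.88 ± 0.204 (adjusted p = 0.0064). SLC2A1, the main glucose transporter of these cells by count, stood at 312, 343 and 334 CPM with siNC and 456, 356 and 327 CPM with siE7. Its siE7 replicate 1 was the highest library and replicate 3 lay among the controls, and the log2 fold change of 0.20 (adjusted p = 0.26) became -0.01 (adjusted p = 0.89) without replicate 1. The lactate transporter SLC16A1 (MCT1) stood at 75.4 to 80.8 CPM with siNC and at 57.7, 105 and 104 CPM with siE7. Here siE7 replicate 1 lay below all controls and replicates 2 and 3 above all controls, so the log2 fold change of 0.19 (adjusted p = 0.48) was 0.36 (adjusted p = 2.4e-06) without that library. SLC16A3 (MCT4), which exports lactate from glycolytic cells, stood at 141 ± 5.47 CPM with siNC and 113 ± 14.7 CPM with siE7, a log2 fold change of -0.32 (adjusted p = 0.058). It was called lower by DESeq2 (adjusted p = 0.033), with RLE scaling (adjusted p = 0.0498) and without siE7 replicate 1 (log2 fold change -0.49, adjusted p = 2.3e-09).

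Of the 16 enzymes tested, 5 fell (HK1, LDHA, PKM, PFKP and GPI), 2 rose (ALDOC and ENO2) and 9 were not called, so that 43.8% were called against 34.0% of all tested genes. The estimate was below 0 for 12 and above 0 for 4, and of the 12, PGK1 and ALDOA turned just above 0 under scaling by library totals alone. The median log2 fold change was -0.28, against 0.08 over all tested genes. All 3 siE7 libraries were below all siNC libraries for 6 enzymes and above them for 4, where 47.6% of all genes did not overlap.

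Hexokinase takes the opening step, the phosphorylation of glucose. HK1, its main form here, stood at 487, 504 and 501 CPM with siNC and at 371, 288 and 264 CPM with siE7. Every siE7 library was below every siNC library, and replicate 1 was the least reduced. The log2 fold change was -0.69 ± 0.132 (adjusted p = 0.0023). HK2, the isoform usually induced by HIF in tumours, stood at 92.0 ± 2.61 CPM with siNC and 110 ± 6.82 CPM with siE7, with no overlap of the groups but an adjusted p of 0.087 (log2 fold change 0.25). Without siE7 replicate 1 the value was 0.19 (adjusted p = 0.0076).

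The next steps convert glucose 6-phosphate to fructose 1,6-bisphosphate. GPI, which isomerises the sugar, stood at 300.2 ± 2.36 CPM with siNC and 225 ± 47.1 CPM with siE7 (log2 fold change -0.42, adjusted p = 0.039), and its call was lost in 5 of the 6 fits that left out a single library, all but the fit without siE7 replicate 1, where the value was -0.66 (adjusted p otherwise up to 0.13). Phosphofructokinase, the committed step, has 3 paralogs. PFKP, the platelet-type form, fell from 365 ± 12.4 to 263 ± 41.6 CPM (log2 fold change -0.47, adjusted p = 0.013), and was not called without siNC replicate 2, siNC replicate 3 or siE7 replicate 2 (adjusted p up to 0.067). PFKL, the liver-type form, stood at 127 ± 3.28 CPM with siNC and 161 ± 37.3 CPM with siE7 (log2 fold change 0.34, adjusted p = 0.10), with siE7 replicate 1 at 204 CPM and a log2 fold change of 0.07 (adjusted p = 0.27) without that library. PFKM, the muscle-type form, gave a log2 fold change of -0.18 (adjusted p = 0.33), or -0.39 (adjusted p = 4.1e-05) without siE7 replicate 1.

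Aldolase splits the 6-carbon sugar. ALDOC, a paralog best known from brain, stood at 5.55, 7.61 and 6.93 CPM with siNC and at 24.8, 18.3 and 17.5 CPM with siE7. All siE7 libraries were above all controls, and replicate 1 was the highest. The log2 fold change was 1.59 ± 0.190, a 3.01-fold difference (adjusted p = 1.2e-04), which made it the only DEG among the enzymes. The other aldolase, ALDOA, was not called on its own row (log2 fold change -0.14, adjusted p = 0.51), but was without siE7 replicate 1 (-0.33, adjusted p = 0.0072).

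The middle of the pathway is carried by abundant enzymes, and none of them was called in the main edgeR fit of all 6 libraries. GAPDH, which oxidises glyceraldehyde 3-phosphate and often serves as a loading control, stood at 2381, 2494 and 1989 CPM with siNC and at 2130, 1643 and 1664 CPM with siE7. Replicate 1 of siE7 lay among the controls and the other siE7 libraries below them, and the log2 fold change was -0.34 ± 0.134 (adjusted p = 0.073). Without siE7 replicate 1 it was -0.53 (adjusted p = 9.1e-07). The neighbouring steps had log2 fold changes of -0.33 for TPI1, -0.16 for PGK1, -0.26 for PGAM1 and -0.30 for ENO1, with adjusted p-values of 0.068 to 0.30. Without siE7 replicate 1 these were -0.53, -0.30, -0.41 and -0.52, and all 4 were called (adjusted p at most 5.4e-05). GAPDH and TPI1 were also called as lower by DESeq2 (adjusted p = 0.04 and 0.038) and by edgeR without the filter on low counts (adjusted p = 0.031 and 0.037). ENO2, the minor enolase known as a neuronal marker, rose from 17.1 ± 1.72 to 25.4 ± 6.50 CPM (log2 fold change 0.57, adjusted p = 0.031), a call lost without any single siNC library (adjusted p up to 0.14). Without siE7 replicate 1 its log2 fold change was 0.28 and it was still called (adjusted p = 0.017).

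At the last steps PKM and LDHA fell. PKM, which makes pyruvate, fell from 5030 ± 181 to 3158 ± 598 CPM (log2 fold change -0.67 ± 0.133, adjusted p = 0.0029). LDHA, which turns pyruvate into lactate, stood at 1383, 1498 and 1327 CPM with siNC and at 774, 962 and 991 CPM with siE7. All siE7 libraries were below all controls, and replicate 1, which was the least reduced for HK1 and PKM, was the most reduced for LDHA. The log2 fold change was -0.63 ± 0.121 (adjusted p = 0.0024).

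The rows of ALDOA and LDHB held few counts beside genes that overlap them on the same strand. ALDOA lies on the plus strand of chromosome 16 (30064164 to 30070457), and the protein-coding gene ENSG00000285043 covers 89.8% of its canonical transcript on the same strand. The ALDOA row held 462 to 651 counts per library, while the overlapping gene held 21865 to 34560. The sum stood at 987 ± 59.9 CPM with siNC and 954 ± 205 CPM with siE7, the groups overlapped, and the log2 fold change was -0.05 (adjusted p = 0.81). LDHB, the heart-type lactate dehydrogenase on the minus strand of chromosome 12 (21635342 to 21757857), held 3 to 7 counts per library. The gene ENSG00000285854, which covers 76.5% of the canonical LDHB transcript and also overlaps GYS2, held 4959, 5062 and 5112 counts with siNC and 3298, 4527 and 5271 with siE7. The sum of this gene and LDHB stood at 199 ± 4.79 CPM with siNC and 149 ± 33.1 CPM with siE7 (log2 fold change -0.42, adjusted p = 0.055). The shared exon bases are 49.4% of those of ENSG00000285043 and 19.3% of those of ENSG00000285854. Where the reads of these genes lie was not examined, so the sums may hold reads from outside ALDOA and LDHB. The sum placed ALDOA among the abundant enzymes, and neither sum passed the test. Exons of 10 members overlap another gene on the same strand, and the counting tool and its use of strand are not given in the sources used here.

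**Figure D2:**
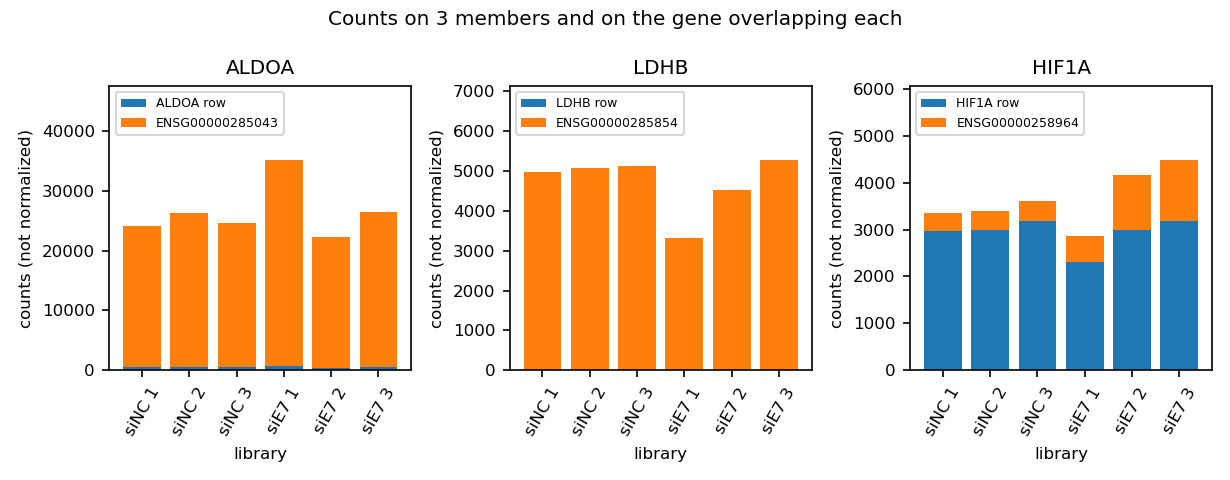
Counts per library on the rows of ALDOA, LDHB and HIF1A (blue) and on the same-strand gene that overlaps each (orange), stacked and not normalized. For ALDOA and LDHB nearly the whole bar is the overlapping gene, and for HIF1A its part grows from 387 to 428 counts with siNC to 560 to 1300 counts with siE7.

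Together the 17 enzyme rows took 1.90, 1.92 and 1.74% of all counts in the siNC libraries and 1.74, 1.50 and 1.44% in the siE7 libraries. Replicate 1 of siE7 equalled the lowest control to 3 digits and the other siE7 libraries were below all controls. With the genes that overlap ALDOA and LDHB added, the shares were 1.96 ± 0.103% and 1.68 ± 0.172%. Per kilobase of canonical transcript the most abundant enzymes with siNC were ENO1, PKM, GAPDH and TPI1, at 3586, 2182, 1781 and 1301 CPM per kb.

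Because several steps have paralogs, the share of each paralog in its family was computed per kilobase of exon. HK2 made up 17.7 ± 0.148% of the sum of HK1 and HK2 with siNC and 29.6 ± 3.44% with siE7, and the groups did not overlap. The share of PFKL in phosphofructokinase went from 21.1 ± 0.170 to 31.2 ± 1.51% and that of PFKP from 69.4 ± 0.297 to 59.0 ± 1.27%, again without overlap, while the shares of PFKM overlapped. In the main edgeR fit HK2 and PFKL themselves were not called, while HK1 and PFKP were called lower. ENO2 stayed below 1% of enolase, at 0.325 ± 0.013% and 0.589 ± 0.042%. SLC2A3 likewise remained a small part of the pair with SLC2A1, at 0.816 ± 0.069% and 1.31 ± 0.105%. ALDOC made up 32.2 ± 3.88% and 61.1 ± 1.44% against the ALDOA row alone, but 0.687 ± 0.095% and 2.12 ± 0.117% per canonical kilobase against ALDOA with its overlapping gene. The share of SLC16A1 against SLC16A3 was 44.6 ± 1.42% with siNC and ranged from 39.2 to 59.5% with siE7, so those groups overlapped. Canonical transcript lengths changed the levels of these shares, as for HK2 with 10.6 ± 0.096% and 18.8 ± 2.50%, and left every non-overlapping pair of groups apart.

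Of the 4 regulators of glycolysis, 3 rose and PDK3 was not called, where 18.0% of all tested genes were called higher. PFKFB4, which makes and breaks fructose 2,6-bisphosphate, the activator of phosphofructokinase, stood at 9.72, 7.61 and 8.71 CPM with siNC and at 24.5, 19.2 and 15.6 CPM with siE7. All siE7 libraries were above all controls, with replicate 1 the highest. The log2 fold change was 1.19 ± 0.190 (adjusted p = 7.7e-04), and at 0.94 without siE7 replicate 1 it was no longer a DEG. Its abundant relative PFKFB3, whose kinase activity favours synthesis of the activator, rose from 165 ± 5.65 to 291 ± 50.6 CPM (log2 fold change 0.82, adjusted p = 8.1e-04). PDK1, a kinase that shuts off pyruvate dehydrogenase, rose from 7.18 ± 0.608 to 11.3 ± 2.27 CPM (log2 fold change 0.65, adjusted p = 0.021), and was called in only 1 of the 6 fits that left out a library, that without siE7 replicate 1 (adjusted p otherwise up to 0.096). PDK3, a kinase of the same family, had a log2 fold change of -0.16 (adjusted p = 0.47), or -0.30 (adjusted p = 0.080) without siE7 replicate 1.

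Of the 13 other HIF targets, 8 rose, CA12 fell, and CA9, BNIP3, BNIP3L and P4HA2 were not called, where 18.0% of all tested genes were called higher and 16.0% lower. The median log2 fold change was 0.47, against 0.08 over all tested genes. All 3 siE7 libraries were above all controls for 7 of them and below for 1, where 47.6% of all genes did not overlap. LOX, which cross-links collagen and elastin, stood at 4.62, 4.04 and 3.03 CPM with siNC and at 15.8, 15.3 and 13.4 CPM with siE7. The lowest siE7 library was well above the highest control, and the 3 siE7 libraries were close together. The log2 fold change was 1.93 ± 0.193, a 3.81-fold difference (adjusted p = 3.6e-05). P4HA1, a catalytic subunit of collagen prolyl hydroxylase, rose from 48.9 ± 3.42 to 88.7 ± 20.5 CPM (log2 fold change 0.86, adjusted p = 0.0023), and its relative P4HA2 had a log2 fold change of -0.05 (adjusted p = 0.79), or -0.25 (adjusted p = 1.2e-04) without siE7 replicate 1.

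Among secreted and stress-response targets, ADM encodes adrenomedullin, a peptide that widens blood vessels. It stood at 44.0, 38.0 and 38.4 CPM with siNC and at 105, 89.4 and 90.3 CPM with siE7. All siE7 libraries were above all controls, and the log2 fold change was 1.24 ± 0.122 (adjusted p = 3.1e-05). NDRG1, a stress-induced gene which per kilobase of canonical transcript was the most abundant of the other HIF targets with siNC, stood at 893, 910 and 833 CPM with siNC and at 1916, 1564 and 1513 CPM with siE7. Its log2 fold change of 0.92 ± 0.118 (adjusted p = 1.9e-04) was just short of the DEG threshold. ANKRD37, a small ankyrin-repeat gene, was scarce and stood at 1.26, 1.72 and 2.35 CPM with siNC and at 4.22, 4.06 and 4.42 CPM with siE7. The siE7 libraries lay close together above the more scattered controls, with a log2 fold change of 1.25 ± 0.253 (adjusted p = 0.0033).

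EGLN3, EGLN1 and KDM3A rose. EGLN3, a prolyl hydroxylase that is itself a HIF target, went from 16.9 ± 2.26 to 28.7 ± 2.30 CPM (log2 fold change 0.77, adjusted p = 0.0022). EGLN1, the main oxygen sensor for HIF1A, gave 0.35 ± 0.124 (adjusted p = 0.045), and this call was lost in 10 of the 15 alternative fits (adjusted p up to 0.16), 5 of them fits without 1 library. KDM3A, a histone demethylase, stood at 36.0 ± 1.41 CPM with siNC and at 36.3, 56.8 and 56.3 CPM with siE7, so that siE7 replicate 1 was at the control level and the adjusted p was 0.048, a call lost in 7 of the 15 alternatives (adjusted p up to 0.16), 5 of them fits without 1 library.

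The carbonic anhydrases, which regulate pH at the cell surface, went different ways. CA9, a widely used hypoxia marker, stood at 162 ± 19.4 CPM with siNC and 201 ± 41.3 CPM with siE7 with overlapping groups (log2 fold change 0.32, adjusted p = 0.13). Its siE7 replicate 1 was the highest library at 248 CPM, and without it the log2 fold change was 0.08 (adjusted p = 0.42). CA12 fell from 49.4 ± 2.73 to 31.2 ± 1.09 CPM (log2 fold change -0.66 ± 0.115, adjusted p = 0.0013). The mitophagy receptors BNIP3 and BNIP3L had log2 fold changes of -0.07 (adjusted p = 0.67) and 0.27 (adjusted p = 0.27). Without siE7 replicate 1 they were -0.05 (adjusted p = 0.51) and 0.38 (adjusted p = 0.0016).

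The contrast between glycolytic enzymes and other HIF targets was visible in each siE7 library but differed in size. Relative to the siNC mean, the median log2 level of the 16 enzymes was -0.05 in siE7 replicate 1 and -0.36 and -0.39 in replicates 2 and 3. The median of the 13 targets was 0.41, 0.66 and 0.65, and that of all tested genes 0.01, 0.09 and 0.09. The enzymes in replicate 1 were thus close to the controls, while the targets were raised in all 3 libraries. Without that library 15 of 16 enzymes were called, 3 higher and 12 lower, and 11 of 13 targets, but 58.4% of all tested genes were then called too. The fold changes of the 2 groups were not compared by a test, since genes are not replicates.

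**Figure D3:**
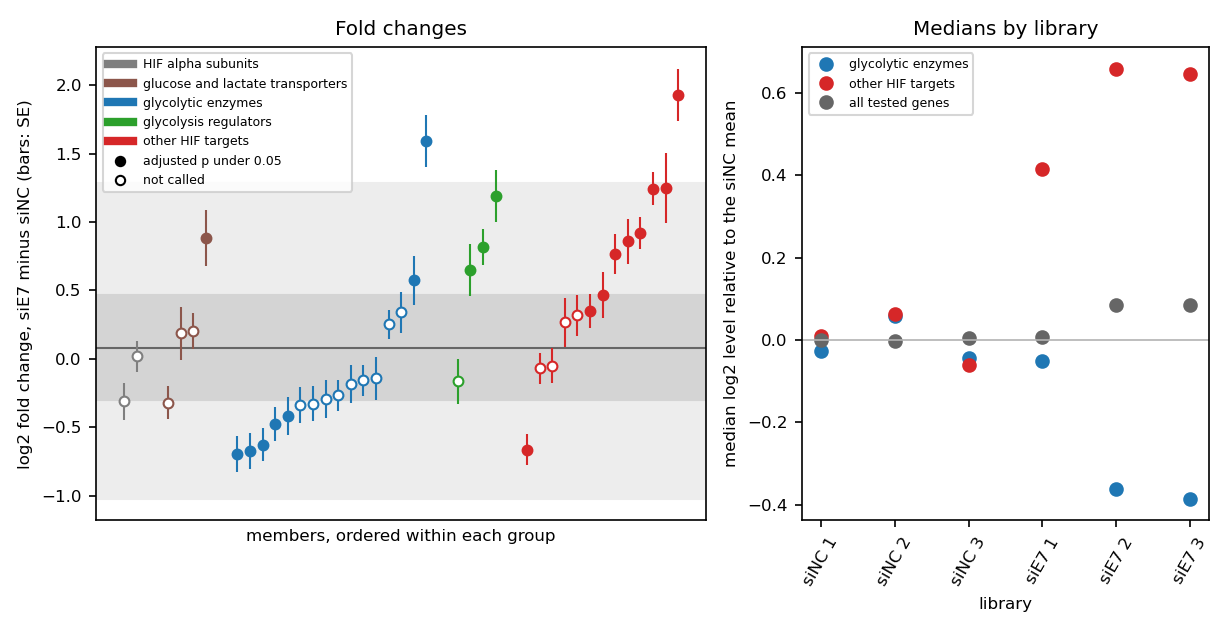
Left, log2 fold change with its SE for each tested member, coloured by role, filled where the adjusted p was under 0.05, with the median (line, 0.08), the middle 50% (dark band) and the middle 90% (light band) of all tested genes. Right, the median log2 level relative to the siNC mean in each library for 16 glycolytic enzymes, 13 other HIF targets and all tested genes, where siE7 replicates 2 and 3 separate the enzymes (-0.36 and -0.39) from the targets (0.66 and 0.65) most.

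The promoters of the 5 DEGs and of LDHA, an enzyme that fell and was chosen after its values were seen, are printed to show where the core motif ACGTG of the HIF binding site lies. Each is the 250 bases before the most upstream RefSeq start (build GRCh38.p14), 5′ to 3′ on the strand of the gene, with every ACGTG or its reverse complement CACGT in capitals. They are LOX (chr5:122078260-122078509, minus strand), ANKRD37 (chr4:185396591-185396840, plus strand), ADM (chr11:10304823-10305072, plus strand), ALDOC (chr17:28576896-28577145, minus strand), PFKFB4 (chr3:48556804-48557053, minus strand) and LDHA (chr11:18394313-18394562, plus strand).
LOX: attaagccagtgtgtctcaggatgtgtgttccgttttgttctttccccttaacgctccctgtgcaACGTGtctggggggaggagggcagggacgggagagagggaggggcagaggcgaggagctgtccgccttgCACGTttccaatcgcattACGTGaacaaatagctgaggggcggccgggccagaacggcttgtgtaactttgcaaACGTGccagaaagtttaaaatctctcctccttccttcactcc
ANKRD37: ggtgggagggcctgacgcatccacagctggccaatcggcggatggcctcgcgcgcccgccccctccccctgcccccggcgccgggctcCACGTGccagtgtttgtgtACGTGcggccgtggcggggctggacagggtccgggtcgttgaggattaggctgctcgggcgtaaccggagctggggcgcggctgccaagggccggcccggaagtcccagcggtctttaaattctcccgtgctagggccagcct
ADM: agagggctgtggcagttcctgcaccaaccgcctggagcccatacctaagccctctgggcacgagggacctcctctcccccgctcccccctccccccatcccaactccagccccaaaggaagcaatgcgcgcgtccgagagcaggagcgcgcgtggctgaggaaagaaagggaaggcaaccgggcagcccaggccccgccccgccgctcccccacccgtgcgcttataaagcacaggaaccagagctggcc
ALDOC: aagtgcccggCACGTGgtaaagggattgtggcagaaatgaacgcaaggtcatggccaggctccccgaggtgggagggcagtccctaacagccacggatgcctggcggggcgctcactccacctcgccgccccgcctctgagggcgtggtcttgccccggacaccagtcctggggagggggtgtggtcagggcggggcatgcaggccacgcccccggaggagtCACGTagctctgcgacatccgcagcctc
PFKFB4: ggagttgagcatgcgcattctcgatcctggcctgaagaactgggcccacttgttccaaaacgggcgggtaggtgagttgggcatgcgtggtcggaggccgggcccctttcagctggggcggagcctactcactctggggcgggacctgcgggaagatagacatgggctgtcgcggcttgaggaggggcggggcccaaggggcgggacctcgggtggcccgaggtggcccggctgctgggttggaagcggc
LDHA: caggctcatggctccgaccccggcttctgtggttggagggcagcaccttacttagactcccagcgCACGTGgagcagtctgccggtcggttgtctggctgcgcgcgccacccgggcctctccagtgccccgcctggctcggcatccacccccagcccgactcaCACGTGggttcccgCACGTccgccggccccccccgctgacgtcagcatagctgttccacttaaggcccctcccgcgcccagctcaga

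LOX held 4 matches, LDHA 3, and ALDOC and ANKRD37 2 each, counting overlapping matches on the 2 strands once. ADM and PFKFB4 held none in this window, and each held 1 match to GCGTG, the other common core. Over the wider windows of 300 bases, from 250 before to 50 after the start, 36 of the 40 members had an entry in the RefSeq table, and NDRG1, BNIP3L, SLC2A3 and SLC16A1 had none. ACGTG on either strand was present in 16 of the 36 (44.4%), against 21.6% of 27305 genes with the same kind of window. By call it was present in 6 of 12 members that rose, 2 of 6 that fell and 8 of 17 that were not called. GCGTG was present in 18 of 36 members and 36.4% of all genes. The members were chosen as genes of the response to low oxygen and of glycolysis. Their higher shares may reflect that choice and are no result about the response to siE7. A match to these letters is a description of the sequence and not a binding site.

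Further genes of the pathway were examined as lists beside the members. Like the members, these lists were chosen with earlier results of these data known, so their counts are not independent support. Of 28 further HIF targets tested, 19 rose and 9 were not called, where 18.0% of all tested genes were called higher, and the median log2 fold change was 0.58. The 7 DEGs among them (7.38% of all genes were DEGs that rose) were PLIN2 (2.40), which coats lipid droplets, PPP1R3C (2.16), which promotes glycogen synthesis, STC2 (1.41), HILPDA (1.21), MXI1 (1.16), PPFIA4 (1.09) and TMEM45A (1.06), all given as log2 fold changes. Of 14 tested regulators of the HIF pathway, 1 rose and 1 fell, where 34.0% of all genes were called in either direction. The latter was CUL2 (log2 fold change -1.34, adjusted p = 0.0054), a scaffold of the ligase that degrades HIF alpha, which stood at 10.4, 9.97 and 10.0 CPM with siNC and at 1.92, 4.71 and 5.40 CPM with siE7. All its siE7 libraries were below all controls.

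Of 26 further genes of glycolysis, gluconeogenesis and pyruvate metabolism tested, 5 rose, 3 fell and 18 were not called, so that 30.8% were called against 34.0% of all genes, with a median log2 fold change of -0.02. The DEGs that rose were LDHD (3.25), a D-lactate dehydrogenase of mitochondria, HKDC1 (2.45), a hexokinase paralog, MPC1 (1.10), a subunit of the mitochondrial pyruvate carrier, and PCK2 (1.01), the mitochondrial PEP carboxykinase. Those that fell were the sugar transporters SLC2A12 (-1.77) and SLC2A6 (-1.28). LDHD held only 6, 5 and 4 counts with siNC, against 87, 41 and 41 with siE7. It passed the filter on low counts only through the siE7 libraries, so the size of its fold change is uncertain. HKDC1 stood at 2.11, 2.08 and 2.99 CPM with siNC and at 13.5, 12.8 and 13.1 CPM with siE7, so the siE7 libraries lay together far above the controls. The squamous markers moved too, with 1 of 8 higher and 4 lower, among them the adhesion gene CDH1 (log2 fold change -1.03), and their part in the results above was not tested.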

How the data were processed

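RNA-seq counts of 6 SCC-9 libraries (3 siE7, 3 siNC) were used as deposited. The authors prepared stranded libraries of polyadenylated RNA and sequenced paired ends on a NovaSeq, and the submitters' processing notes name HISAT2, GRCh38 and DESeq2. The deposited values are whole read counts per gene without normalization; the counting tool, the annotation release and the use of strand are not given in the sources used here. Of 25349 gene identifiers 25283 were found in GENCODE v44, from which exon overlaps and lengths were taken.

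edgeR 4.0.16 (R 4.3.3) was fitted on the whole table with filterByExpr (14661 genes kept), TMM factors and the robust quasi-likelihood F-test, and p-values were adjusted by Benjamini-Hochberg over all genes tested. The SE of a log2 fold change was derived from the test, as its absolute value divided by the square root of the F statistic. A gene was called at an adjusted p under 0.05, and a DEG also had an absolute log2 fold change above 1, the thresholds of the study. The study used DESeq2, which was run as an alternative (version 1.42.0). The edgeR test was checked on counts simulated with the same dispersion for all genes and libraries. That check did not cover a library that stands apart from its group. Library totals of 25608192 to 29550264 counts limit precision only for genes of few counts, such as ANKRD37. With 3 libraries per group an exact permutation test cannot give a p below 0.1, so none was used. Levels per library in relative form are log2 of CPM plus 0.02.

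Samples were grouped by their titles. The correlations of deviations between libraries of the same number were -0.063, -0.017 and -0.094, so the numbers were not taken as pairs. The members and gene lists were chosen with earlier results of these data known. All 40 members are accounted for, and companion genes of the pathway are named only where they are DEGs; some cell type markers are named besides. Values in every library are given for the DEGs, GAPDH, HIF1A, EPAS1 and the 3 genes of smallest p among enzymes and among other HIF targets; further per-library values were added after they were seen. Alternatives were DESeq2, 3 other scalings, 2 other filters, the replicate number as a block, leaving out each library, and sums with pseudogenes. Sums with same-strand overlapping genes and canonical transcript lengths were added after seeing the data.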

Additional observations from a re-analysis of the deposited data

How the results depend on the processing

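The 20 calls among the members became 14 to 33 when single libraries were left out, with 33 without siE7 replicate 1 and 14 without siNC replicate 2 or 3, while the share of all genes called ranged from 20.9 to 58.4% (34.0% with all libraries). The corresponding ranges were 4 to 15 for the enzymes called (main value 7), 7 to 11 for the other HIF targets (9) and 4 to 5 for the DEGs (5). The median log2 fold changes ranged from -0.46 to -0.20 for the enzymes and from 0.37 to 0.59 for the other targets. The replicate number as a block gave 19 calls, losing EGLN1, and 5 DEGs. DESeq2 gave 22 calls and upper-quartile scaling 19.

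Scaling by library totals alone moved the median of all genes from 0.08 to 0.25 and gave 8 DEGs and a median of 0.65 for the other targets. Relative to the median of all genes, the enzymes stood at -0.36 in both scalings and the other targets at 0.39 and 0.40. Under library totals the log2 fold changes that turned sign were those of BNIP3 (0.10), PDK3 (0.0029), PGK1 (0.0077), P4HA2 (0.11) and ALDOA (0.020), none of them called. EPAS1 turned to -0.036 with DESeq2 and -0.027 with RLE scaling. With single libraries left out, EPAS1 ranged from -0.11 to 0.089, SLC2A1 from -0.011 to 0.30 and P4HA2 from -0.25 to 0.023, the low end of each without siE7 replicate 1, where P4HA2 was called. The cause was not tested. Sums with pseudogenes changed no call. Depth limits the scarce members most, such as LDHB, ANKRD37 and SLC2A3.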
